A study of Rattus norvegicus with 52 samples.

Results

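Apolipoproteins are the protein components of lipoproteins, the particles that carry cholesterol and triglyceride in blood, and the liver is a main site of their synthesis. Some, such as apolipoprotein B, hold a particle together from assembly to uptake, while smaller exchangeable ones move between particles and activate or inhibit the enzymes and receptors that act on them. Fibrates such as clofibric acid (CA) activate the nuclear receptor PPARα and are used to lower blood triglyceride. The genes described here are Apoa4, Apoa1, Apoa2, Apoc3, Apoc1, Apoe and Apob. The genes were chosen with earlier results of these data known, and their probe sets were then found by the accession in the ID. On the array, 8 of the 8740 non-control probe sets belonged to these 7 genes: Apoc3 had 2 probe sets and each other gene had 1, and an additional accession for Apoe had 0.

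RNA was measured in liver sections of F344 rats, an inbred strain, with 1 one-colour oligonucleotide array per sample. The controls received 0% CA and the treated rats 0.29 or 0.54% CA, and no group carried a genetic change by the labels. Entire sections gave 8 control arrays, 8 at 0.29% and 6 at 0.54%, and stained sections gave 8, 7 and 5. Dehydrated sections and sections held for the reference time of laser capture microdissection (LCM, which isolates chosen regions of a section under a microscope) gave 1 array at each dose. Microdissected liver gave 2 control arrays and 1 array at each CA dose. How CA was given and for how long, the age and sex of the rats and the microdissected region are not stated in the labels. Nothing says that replicates came from separate rats, so a p-value here reflects spread among samples that may be technical. In sections of whole tissue, fewer cells of a type and less RNA per cell cannot be told apart.

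The GAPDH 3'/5' ratio, taken between its control probe sets and a sign of RNA quality, was lowest in entire sections, with a median of 1.54 over 22 arrays. The median was 8.45 over the 20 stained arrays and 11.8 over the 3 dehydrated ones. For LCM-reference-time sections it was 4.70, and for microdissected liver 7.71. It therefore moved with preparation in every comparison between preparations below. It also varied between doses within preparations, so it was not balanced in the CA comparisons. In microdissected liver it was 14.3 and 9.22 in controls, 6.20 at 0.29% and 3.02 at 0.54%. From control to 0.54% it was 6.36, 11.8 and 14.3 in dehydrated and 7.28, 3.12 and 4.70 in LCM-reference-time sections. Stained sections ranged from 4.66 to 18.9 in controls and from 2.59 to 11.6 at 0.54%, and entire ones from 1.25 to 6.25 and from 1.25 to 6.49. The 3 entire-section arrays above 4 were control replicate 7, 0.29% replicate 7 and 0.54% replicate 5. In stained sections, 5S rRNA lay above 200 on 3 arrays, control replicate 8, 0.29% replicate 7 and 0.54% replicate 5. Results that changed without these 6 arrays are given with both values.

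Apoa1, Apoc3 and Apoa4 lie side by side in that order on chromosome 8 of the rat assembly GRCr8, followed by Apoa5. Apoc1 and Apoe are neighbours on chromosome 1, while Apoa2 is on chromosome 13 and Apob on chromosome 6. The sequence before the start of Apoa4 is shown because it had the largest fall of the members in entire sections and lies beside Apoc3 and Apoa1, which were also called lower there at both doses. It covers chr8:55435529-55435778 on the plus strand of GRCr8, 250 bases that end at the base before the annotated start, from RefSeq.
Apoa4: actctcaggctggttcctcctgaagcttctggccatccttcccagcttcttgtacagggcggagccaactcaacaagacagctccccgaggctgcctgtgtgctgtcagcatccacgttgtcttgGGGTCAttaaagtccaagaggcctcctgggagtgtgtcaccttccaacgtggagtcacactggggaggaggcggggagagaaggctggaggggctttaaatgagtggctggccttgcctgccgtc
The capitals mark its single match, on either strand, to GGGTCA, a variant of the core element that nuclear receptors bind, which 11.9% of 33469 promoter windows of this length held. The core element itself, AGGTCA, had 0 matches here and was present in 14.1% of all windows. The direct repeat AGGTCANAGGTCA, the DR1 element that PPARα with its partner RXR is known to bind, had 0 matches in the Apoa4 window and was present in 0.0508% of all windows. These are matches of letters and say nothing about binding.

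CA lowered the RNA of Apoa4, Apoc3 and Apoa1 in entire sections at both doses, while Apoc1, Apoe and Apob did not pass the test at either. A probe set was called when its adjusted p (limma, Benjamini-Hochberg over all probe sets tested) lay under 0.05. At 0.29% CA, 5 of the 8 member probe sets were called lower, against 5.66% called lower among 7701 probe sets tested. At 0.54% CA, 4 were called lower, against 7.79% called lower. Most member probe sets are bright, and bright probe sets were called more often: among the 2687 probe sets above an intensity of 66 on at least 25% of the arrays, 14.5% were called lower at 0.29% and 19.4% at 0.54%. The median log2 change of the member probe sets was -0.42 at 0.29% and -0.77 at 0.54%, beside medians of -0.0041 and -0.0026 over all probe sets tested. At 0.54% the share of higher probe sets among all those called was 51.3%, and 38.5% on the deposited scale centred on each array's median.

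Apoa4 encodes an apolipoprotein of chylomicrons and high-density lipoprotein (HDL) that is made mainly in intestine and, in rodents, also in liver. Its intensity in the 8 entire control sections ranged from 899 to 1636 with a median of 1291. At 0.29% CA it ranged from 11 to 70 with a median of 31 (n = 8), and at 0.54% from 8 to 29 with a median of 13 (n = 6). All 14 CA arrays lay below all 8 controls, the highest at 70 against a lowest control of 899. The means of this probe set, m00002_at, were 1274 ± 249 (SD, n = 8) in controls, 35.9 ± 23.6 (SD, n = 8) at 0.29% and 14.3 ± 7.58 (SD, n = 6) at 0.54%. After normalization Apoa4 was 46.8-fold lower at 0.29% (log2 change -5.55 ± 0.37, SE; limma adjusted p = 3.75e-10). At 0.54% it was 108-fold lower (log2 change -6.75 ± 0.40, SE; limma adjusted p = 4.20e-11). Values this low lie where the size of the fall depends on the floor that replaces low intensities: with a floor of 20 in place of 4 the fall at 0.54% was 55.4-fold. The arrays of the CA doses overlapped, and the difference between them did not pass the test (log2 change -1.21 ± 0.40, SE; limma adjusted p = 0.204). It was -0.54 with a floor of 20 (limma adjusted p = 0.341) and -1.81 with array weights, where it was called (limma adjusted p = 0.0107). Its size is not well measured, since 55.5% of all deposited values lay below 20, as did the median at 0.54% CA.

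**Figure D1:**
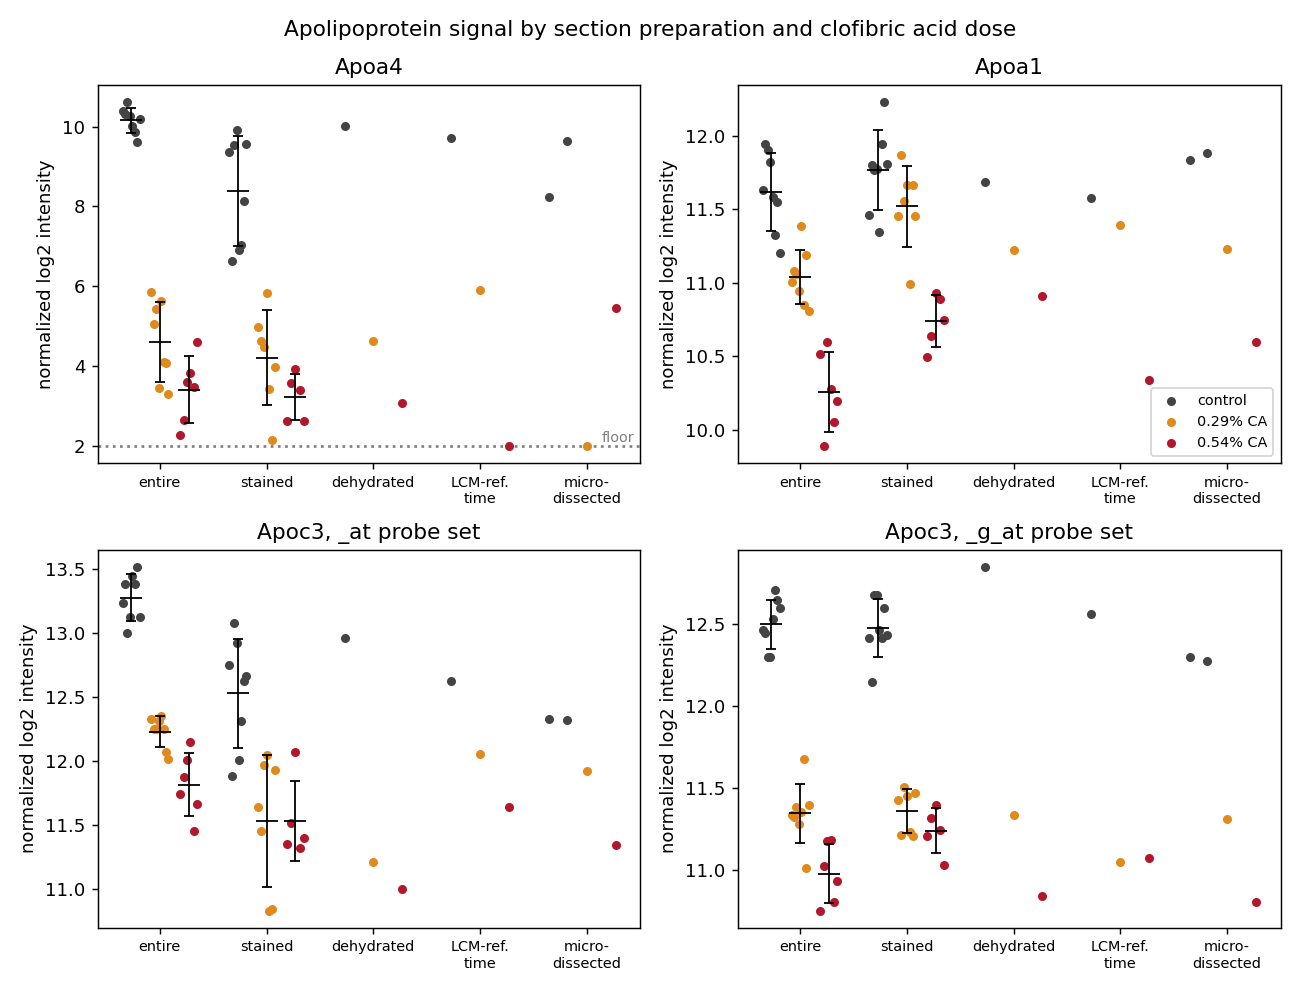
Normalized log2 intensity of Apoa4, Apoa1 and the 2 Apoc3 probe sets on each of the 52 arrays, by preparation (x axis) and CA dose (colour). Points are arrays, black bars are mean ± SD for groups of more than 2 arrays, and the dotted line is the floor; the CA arrays of Apoa4 and of the j02596cds_g_at probe set of Apoc3 lie below all controls of their preparation, and those of j02596cds_at do so except in stained sections.

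Apoc3 encodes an inhibitor of lipoprotein lipase and of the uptake of triglyceride-rich remnants. Both of its probe sets fell. The j02596cds_at probe set ranged from 5950 to 9673 in entire controls (median 7968.5, n = 8), from 3057 to 5540 at 0.29% CA (median 4525.5, n = 8) and from 2306 to 4000 at 0.54% (median 3436.5, n = 6). It was 2.07-fold lower at 0.29% (log2 change -1.05 ± 0.10, SE; limma adjusted p = 9.04e-08) and 2.76-fold lower at 0.54% (-1.46 ± 0.11, SE; limma adjusted p = 1.16e-09). On both Apoc3 probe sets all 14 CA arrays lay below all 8 controls. The j02596cds_g_at probe set ranged from 4665 to 6612 in controls (median 5851), from 1916 to 2931 at 0.29% (median 2656.5) and from 1715 to 2354 at 0.54% (median 2002). It was 2.22-fold lower at 0.29% (-1.15 ± 0.09, SE; limma adjusted p = 9.09e-09) and 2.87-fold lower at 0.54% (-1.52 ± 0.10, SE; limma adjusted p = 2.62e-10). Between the doses the arrays overlapped, and neither probe set passed the test (-0.41 and -0.37 on the log2 scale; limma adjusted p = 0.0688 and 0.0979). Both passed it with a floor of 20 (limma adjusted p = 0.0248 and 0.0349). Single arrays decided this too: without 0.29% replicate 7, j02596cds_g_at passed (-0.41, limma adjusted p = 0.0372), and without 0.54% replicate 4, j02596cds_at passed (-0.48, limma adjusted p = 0.0335).

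Apoa1 encodes the main structural protein of HDL and the activator of the cholesterol-esterifying enzyme LCAT. Its intensity ranged from 2494 to 4050 in entire controls (median 3065, n = 8), from 1783 to 2690 at 0.29% CA (median 2155, n = 8) and from 1097 to 1691 at 0.54% (median 1284, n = 6). The arrays at 0.29% overlapped with the controls through 1 array, and those at 0.54% lay below every control and every array at 0.29%. Apoa1 was 1.5-fold lower at 0.29% (log2 change -0.58 ± 0.12, SE; limma adjusted p = 0.00265) and 2.57-fold lower at 0.54% (-1.36 ± 0.13, SE; limma adjusted p = 1.26e-07). It was the single member called between the doses, 1.72-fold lower at 0.54% than at 0.29% (-0.78 ± 0.13, SE; limma adjusted p = 0.00377), where 0.480% of all probe sets tested were called lower.

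Apoa2, the second major HDL protein, fell at 0.29% CA only by a small amount. Its intensities were 4436, 5300, 4672, 5235, 5165, 4993, 4037 and 5361 in the 8 entire controls and 4100, 4155, 4550, 3887, 3581, 3602, 2835 and 4487 in the 8 arrays at 0.29%. At 0.54% they were 3849, 3790, 4002, 3800, 3131 and 5896. The groups overlapped, with replicate 6 at 0.54% the highest deposited Apoa2 intensity of all 22 entire arrays. After normalization it lay below control replicate 7 (12.35 against 12.40 on the log2 scale). The fall at 0.29% was 1.20-fold (log2 change -0.27 ± 0.08, SE; limma adjusted p = 0.0232) and that at 0.54% did not pass the test (-0.09 ± 0.08, SE; limma adjusted p = 0.551). The call at 0.29% was lost without the 6 arrays named above (-0.24, limma adjusted p = 0.0849), with all 15 groups in the fit (limma adjusted p = 0.131) and on the deposited scale (-0.38, limma adjusted p = 0.073).

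The other 3 members were not called in entire sections. Apob, which encodes the structural protein of very-low-density and low-density lipoproteins, averaged 2502 ± 478 (SD, n = 8) in controls, 2152 ± 507 (SD, n = 8) at 0.29% and 2065 ± 371 (SD, n = 6) at 0.54%. Its 95% interval at 0.54% ran from -0.55 to 0.22 on the log2 scale, so a fall of the size of that of Apoa1 lay outside it. Apoc1, an exchangeable apolipoprotein that inhibits lipoprotein uptake, averaged 6241 ± 741 (SD, n = 8), 5368 ± 1069 (SD, n = 8) and 4805 ± 1186 (SD, n = 6) in the same order. Apoe, the ligand through which remnant particles bind their liver receptors, averaged 9941 ± 1862 (SD, n = 8), 8575 ± 2502 (SD, n = 8) and 7434 ± 3119 (SD, n = 6).

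For these bright probe sets the scale decided the value. Quantile normalization gives the same value to the same rank on every array. Apoe was the brightest non-control probe set on 38 of 52 arrays and among the brightest 5 on all 52, and its 52 intensities were reduced to 4 normalized values. Its normalized change at 0.54% CA was 0.05 ± 0.08 (SE; limma adjusted p = 0.77), and on the deposited scale centred on each array's median it was -0.60 ± 0.24 (SE; limma adjusted p = 0.109). For Apoc1, among the brightest 100 on all 52 arrays, the values were -0.0012 ± 0.08 (SE; limma adjusted p = 1) and -0.51 ± 0.17 (SE; limma adjusted p = 0.042), so Apoc1 was called lower on the deposited scale alone. The falls of Apoa4, Apoa1 and Apoc3 were called on both scales.

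**Figure D2:**
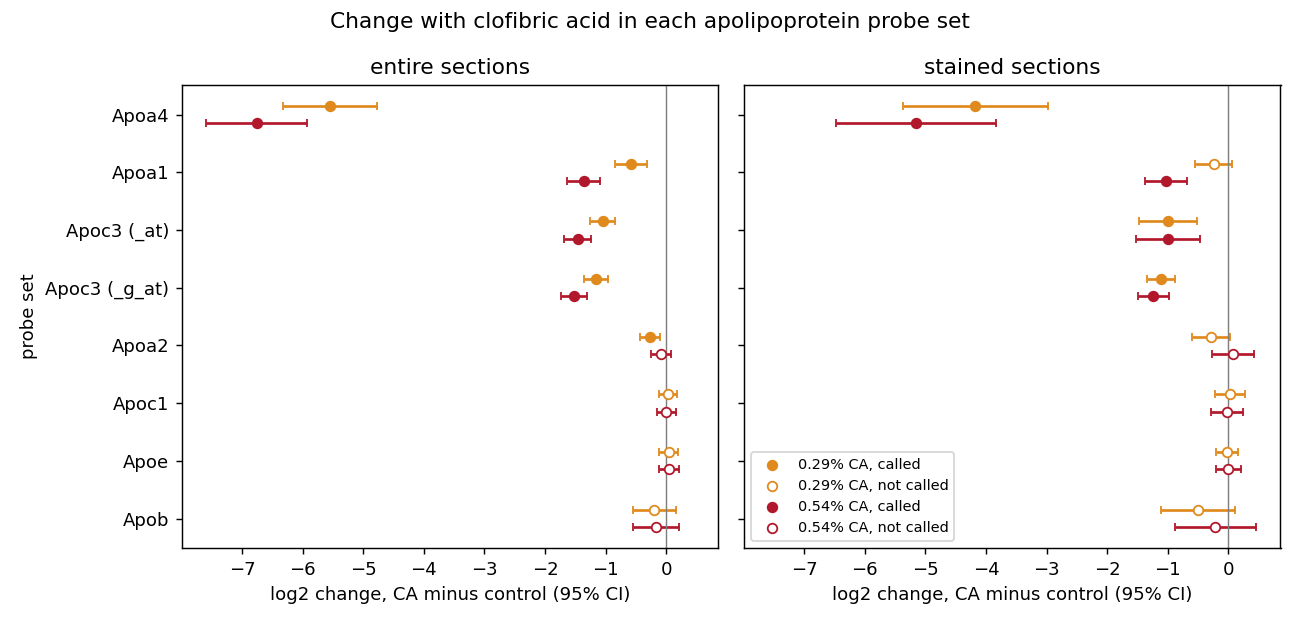
Log2 change of each member probe set with CA (x axis, bars are 95% confidence intervals) in entire and stained sections, at 0.29% and 0.54% CA; filled points were called (limma adjusted p under 0.05). Apoa4 lies furthest from 0 in both panels, Apoa1 in stained sections at 0.29% (-0.25) is not called, and the intervals of Apoc1 and Apoe include 0 in both panels on this normalized scale.

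In stained sections Apoa4 and Apoc3 fell at both doses, and Apoa1 at 0.54%. At 0.29% CA 3 of the 8 member probe sets were called lower, against 1.80% of 8058 probe sets tested, and at 0.54% 4 were, against 3.29%. Among the 2473 brighter probe sets 6.63% and 10.1% were called lower. Apoa4 had intensities of 577, 76, 709, 942, 115, 107, 235 and 493 in the 8 stained controls, 30, 22, 19, 66, 11, 3 and 10 at 0.29% and 7, 12, 14, 9 and 6 at 0.54%. All 12 CA arrays lay below all 8 controls, but the margin was small, 66 against 76, because the controls spread over a 12.4-fold range. Apoa4 was 18.1-fold lower at 0.29% (log2 change -4.18 ± 0.57, SE; limma adjusted p = 8.96e-05) and 35.7-fold lower at 0.54% (-5.16 ± 0.63, SE; limma adjusted p = 1.63e-05; 16.8-fold with a floor of 20).

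Apoc3 fell in stained sections on both probe sets. The j02596cds_g_at probe set ranged from 4973 to 7334 in controls (median 6592, n = 8), from 2300 to 3124 at 0.29% (median 2760, n = 7) and from 2316 to 2863 at 0.54% (median 2646, n = 5). No CA array overlapped with a control, and the falls were 2.17-fold (-1.12 ± 0.11, SE; limma adjusted p = 1.73e-06) and 2.36-fold (-1.24 ± 0.12, SE; limma adjusted p = 1.25e-06). The j02596cds_at probe set ranged from 4636 to 8861 in controls and from 1908 to 4396 over the 12 CA arrays, without overlap, although the groups overlapped after normalization. Its changes were -1.0 ± 0.23 (SE; limma adjusted p = 0.0133) at 0.29% and -0.997 ± 0.25 (SE; limma adjusted p = 0.0191) at 0.54%. The latter call was lost without the arrays in doubt (-0.95, limma adjusted p = 0.0694) and without 0.54% replicate 1, 4 or 5 (limma adjusted p = 0.0575, 0.0508 and 0.0542; log2 changes -0.95, -0.94 and -0.96).

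Apoa1 intensities in stained sections ranged from 2912 to 4552 in controls (median 3654.5, n = 8), from 2169 to 4285 at 0.29% (median 3251, n = 7) and from 1517 to 2094 at 0.54% (median 1722, n = 5). The arrays at 0.54% lay below all others, and those at 0.29% overlapped with the controls. The change was -0.25 ± 0.15 (SE; limma adjusted p = 0.564) at 0.29% and -1.03 ± 0.16 (SE; limma adjusted p = 0.000367) at 0.54%, a 2.04-fold fall. Between the doses 0 of 8 members were called, where 0.0372% of all probe sets were. Apoa1 was closest, at -0.78 ± 0.17 (SE; limma adjusted p = 0.115), and it was called under 5 of the alternatives, with adjusted p from 0.00447 to 0.0497. Apoa2, Apoc1, Apoe and Apob were not called at either dose.

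The difference of the CA effect between stained and entire sections was tested directly. None of the 8 members was called at 0.29% or at 0.54% CA by limma, where 0.0848% and 0.133% of 8253 probe sets were called, and 0 and 1 had an unadjusted p under 0.05. That 1 was Apoa4 at 0.54%, whose fall was smaller in stained sections by 1.60 ± 0.75 on the log2 scale (SE; unadjusted p = 0.0393, limma adjusted p = 0.495; 95% interval 0.08 to 3.11). At 0.29% the difference was 1.37 ± 0.69 (SE; limma adjusted p = 1). The Apoa4 intensities at 0.54% were near the floor in both preparations, 8 to 29 in entire and 6 to 14 in stained sections. With the floor of 4 the arrays at 0.54% differed by -0.17 ± 0.58 between the preparations (SE; limma adjusted p = 0.98). The controls differed by -1.77 ± 0.48 (SE; limma adjusted p = 0.00401). With a floor of 20 these were -0.05 and -1.77. That floor lay above all stained and most entire arrays at 0.54%, so the -0.05 was largely fixed by it. The value for Apoa4 therefore cannot be told apart from the lower level in stained controls, and a difference between the CA arrays was not measurable.

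Levels in controls differed between preparations for Apoa4. Stained controls averaged 407 ± 323 (SD, n = 8) against 1274 ± 249 (SD, n = 8) in entire controls, 3.41-fold lower after normalization (log2 difference -1.77 ± 0.48, SE; limma adjusted p = 0.00401), and -1.88 on the deposited scale (limma adjusted p = 0.00295). The groups overlapped in 1 stained array, at 942. In this comparison 30.3% of all probe sets were called, and 57.0% of the 2660 brighter ones, so 2 member calls of 8 are no more than the background. The Apoa4 difference was -1.04 and not called (limma adjusted p = 0.504) with the GAPDH ratio as a covariate. Within the 8 stained controls the Apoa4 level and the log2 GAPDH ratio gave Pearson's r = -0.45 (exact permutation p = 0.253, adjusted 0.579 over 8 relations) and Spearman's rho = -0.40 (exact permutation p = 0.327, adjusted 0.654). Without the 2 arrays farthest from the median ratio r was 0.12. The part of RNA quality in the Apoa4 difference was otherwise not tested.

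Apoa1 was called higher in stained than in entire sections at both CA doses, but as 1 of 8 members this is no more than the 25.9% and 14.1% called higher among the 2660 brighter probe sets. At 0.29% the difference was 0.48 ± 0.13 (SE; 1.40-fold; limma adjusted p = 0.0069), where 11.9% of all probe sets were called higher, and 0.76 on the deposited scale. At 0.54% it was 0.48 ± 0.16 (SE; limma adjusted p = 0.0399), where 4.83% were called higher. Neither call remained with the GAPDH ratio as a covariate, although the differences were 0.56 and 0.53 (limma adjusted p = 0.0598 and 0.0526). The call at 0.54% was also lost without the arrays in doubt (0.44, limma adjusted p = 0.126), and without any 1 of entire 0.54% replicates 2, 4, 5 and 6 and stained 0.54% replicates 2, 3, 4 and 5 (differences from 0.41 to 0.51, limma adjusted p from 0.0529 to 0.118).

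The Apoc3 probe sets disagreed on the effect of staining. In controls j02596cds_at was lower after staining by 0.75 ± 0.17 (SE; limma adjusted p = 0.00063) while j02596cds_g_at differed by -0.02 ± 0.09 (SE; limma adjusted p = 0.924). On the deposited scale the same differences were -0.0094 (limma adjusted p = 1) and 0.44 (limma adjusted p = 0.00345), so the direction for Apoc3 depends on probe set and scale. The ratio of the 2 probe sets on 1 array is free of any scaling between arrays. Its log2 averaged 0.48 ± 0.14 (SD, n = 8) in entire controls and 0.037 ± 0.27 (SD, n = 8) in stained controls (two-sided exact permutation p = 0.000777, adjusted 0.00233 over 3 doses). At 0.29% it was 0.76 ± 0.23 (SD, n = 8) and 0.18 ± 0.40 (SD, n = 7; exact permutation p = 0.00249, adjusted 0.00373), and at 0.54% 0.70 ± 0.17 (SD, n = 6) and 0.27 ± 0.18 (SD, n = 5; exact permutation p = 0.00866, adjusted 0.00866). In stained sections 7 of 8 controls lay below every entire control. The probe sets therefore changed unequally, and no level of Apoc3 is compared between preparations here.

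**Figure D3:**
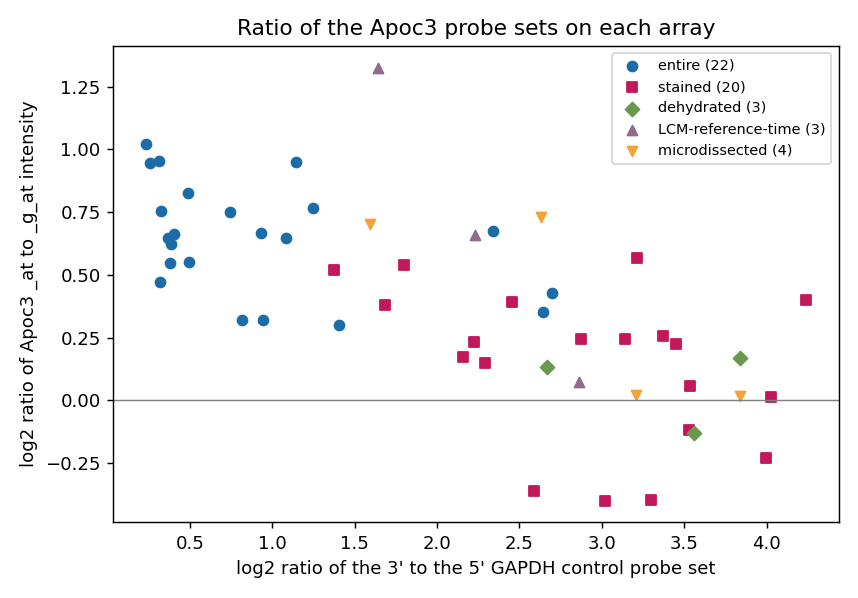
Log2 ratio of the deposited intensities of the 2 Apoc3 probe sets on each array (y axis) against the log2 of the GAPDH 3'/5' ratio (x axis), by preparation, with the number of arrays in brackets. Entire sections lie between 0.30 and 1.02 on the y axis and stained sections between -0.40 and 0.57.

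The 3 preparations with few arrays were fitted with all 15 groups, which assumes that lone arrays vary like the replicated ones. In dehydrated sections the control had an Apoa4 intensity of 1270, and the CA arrays 26 at 0.29% and 5 at 0.54%. It was 328, 38 and 0 in LCM-reference-time sections in the same order. In microdissected liver it was 223 and 360 in the controls, 0 at 0.29% and 45 at 0.54%. In each preparation both CA arrays lay below the controls, and in microdissected liver the higher dose had the higher value. The mean of the doses against control gave -6.16 ± 1.17 (SE; limma adjusted p = 0.000964) in dehydrated sections, -5.77 ± 1.17 (SE; limma adjusted p = 0.000414) in LCM-reference-time sections and -5.22 ± 0.96 (SE; limma adjusted p = 0.000143) in microdissected liver. With a floor of 20 these were -5.53, -4.61 and -4.06.

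In the same contrasts 3 of 8 members were called lower in dehydrated sections (0.691% of 8388 probe sets called lower), 2 in LCM-reference-time sections (7.46%) and 3 in microdissected liver (6.27%). The Apoc3 probe set j02596cds_at changed by -0.78 ± 0.40 (SE) in LCM-reference-time sections and by -0.70 ± 0.32 (SE) in microdissected liver, and was called in neither. The Apoc3 probe set j02596cds_g_at, with larger falls there, was among those called in all 3. It went from 7739 to 2862 and 1860 in dehydrated sections, from 6790 to 1650 and 2155 in LCM-reference-time sections, and from 5399 and 5945 to 1698 and 1756 in microdissected liver. Its changes were -1.76 ± 0.21, -1.50 ± 0.21 and -1.23 ± 0.17 (SE; limma adjusted p = 1.51e-07, 6.44e-07 and 9.63e-07). The other Apoc3 probe set was called in dehydrated sections alone (-1.86 ± 0.40, SE; limma adjusted p = 0.00444), and not on the deposited scale (limma adjusted p = 0.0573).

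Apoa1 was called in microdissected liver, where the controls were 3586 and 3766 and the CA arrays 1593 and 1493. The change was -0.94 ± 0.25 (SE; limma adjusted p = 0.00801). It was not called with array weights (limma adjusted p = 0.408) or without control replicate 2 (-0.92, limma adjusted p = 0.0534). In dehydrated sections Apoa1 was 3913 in the control and 2665 and 1975 under CA, and in LCM-reference-time sections 2043, 2161 and 1140. Neither was called (limma adjusted p = 0.451 and 0.127). Apoa2, Apoc1, Apoe and Apob were not called in any of the 3 preparations.

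Apoe differed between preparations in the deposited intensities and not after normalization. It was 33126, 23626 and 17778 in LCM-reference-time sections from control to 0.54%. In microdissected liver it was 18023 and 37936 in the controls, 23372 at 0.29% and 19678 at 0.54%. Each of these 7 values was above all 22 entire arrays, the highest of which was 13418. Stained sections also held high values, up to 26625 in a control. Their means were 16906 in controls, 14022 at 0.29% and 10806 at 0.54%. On the deposited, median-centred scale the mean over doses was higher than in entire sections by 2.03 ± 0.33 (SE; limma adjusted p = 7.43e-06) in LCM-reference-time sections and by 1.92 ± 0.30 (SE; limma adjusted p = 4.85e-06) in microdissected liver. After quantile normalization the same differences were -0.01 ± 0.07 (SE; limma adjusted p = 0.948) and 0.01 ± 0.07 (SE; limma adjusted p = 0.987), as its rank fixes its value.

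**Figure D4:**
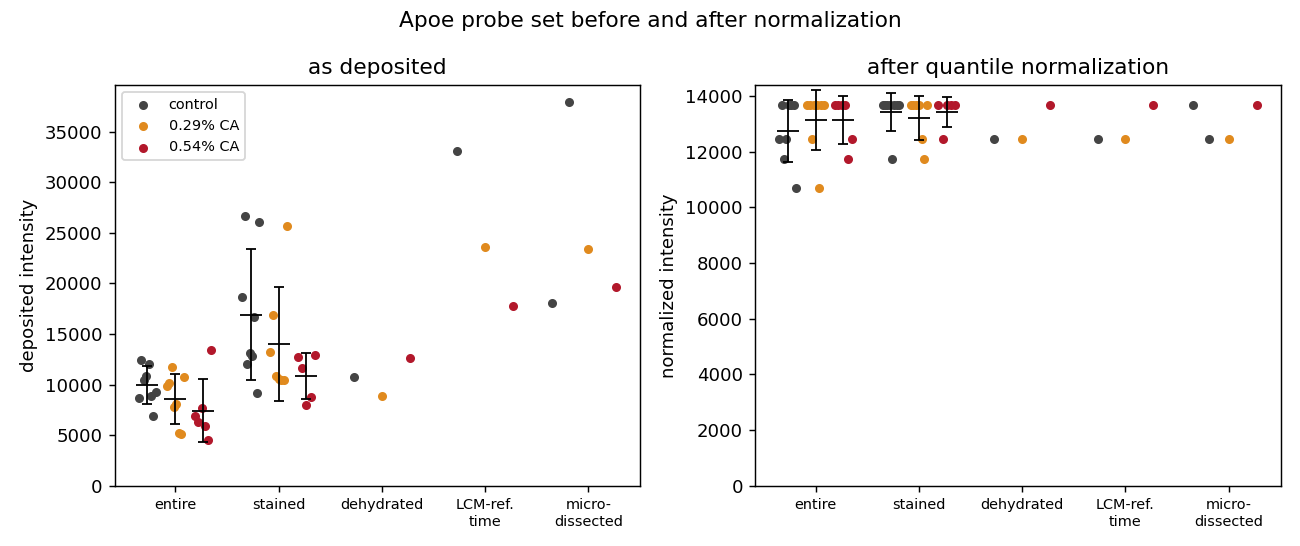
Intensity of the Apoe probe set (y axes from 0) on each array as deposited and after quantile normalization, by preparation and CA dose. Points are arrays and bars mean ± SD for groups of more than 2; the highest deposited value, 37936, is a microdissected control, and the normalized ones take 4 values.

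Apoc1 gave the same contrast of scales, with 0.99 in LCM-reference-time sections and 0.95 in microdissected liver on the deposited scale (limma adjusted p = 2.22e-05 and 1.20e-05) against -0.01 in both after normalization. After normalization, the mean over doses differed from that of entire sections for 5 of 8 members in stained sections (39.3% of all probe sets called), 1 in dehydrated (20.7%), 0 in LCM-reference-time (31.5%) and 1 in microdissected sections (31.1%). Among the 2630 brighter probe sets 66.3%, 44.2%, 44.0% and 44.0% were called in the same order, so these member counts are no more than the background. For controls, the order of mean normalized log2 level of Apoa4 was entire 10.16 ± 0.32 (SD, n = 8), dehydrated 10.01, LCM-reference-time 9.72, microdissected 8.94 ± 0.99 (SD, n = 2) and stained 8.39 ± 1.37 (SD, n = 8). By mean deposited intensity the order was entire 1274, dehydrated 1270, stained 407, LCM-reference-time 328 and microdissected 291.5. The place of stained controls therefore depended on the scale. Of these preparations, stained and entire controls were tested against each other, as given above. The other preparations were tested against entire sections only as means over the doses.

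Across the 15 group means, the probe sets most like Apoa4 among 5757 above the floor on at least 26 arrays were rc_aa858588_at (Pearson's r = 0.94) and x54096_at (r = 0.91). The first was dim, with mean intensities from 93.5 in microdissected controls to -7 in LCM-reference-time sections at 0.54% CA. Its likeness therefore rests in part on values raised to the floor. Over the 52 arrays it ranked 16 (r = 0.81) and x54096_at ranked 2 (r = 0.90). The most opposite were rc_aa800243_at (r = -0.95) and d00729_g_at (r = -0.94), named by ID as no gene name was at hand. The Apoc3 probe set j02596cds_g_at ranked 6 of 5757 (r = 0.89), and 1 of 5757 over the 52 arrays (r = 0.90). The other Apoc3 probe set ranked 43 (r = 0.81), Apoa1 80 (r = 0.75) and Apob 273 (r = 0.58), whereas Apoc1 and Apoe had r = -0.37 and -0.40. Over the 52 arrays Apoc1 and Apoe had r = -0.11 and -0.12. All these r used normalized values, which for these 2 bright probe sets are largely fixed by rank. The groups share the CA doses and the preparations, so these are descriptions of pattern without a test.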

How the data were processed

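The authors deposited 1 whole-number linear intensity per probe set and array; their software, scaling and annotation are not stated in the labels. Between 20.6% and 30.1% of the values of an array were below 0. Intensities were quantile normalized between all 52 arrays, raised to a floor of 4 (10th percentile of positive values) and taken to log2. Groups were compared with limma 3.58.1 (R 4.3.3; lmFit, eBayes, two-sided, Benjamini-Hochberg over non-control probe sets above the floor on at least 1 array). Single values were compared by exact permutation tests (SciPy). An array has no read depth; the number of arrays limits precision.

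Members and lists were chosen with earlier results of these data known. Every member found is named, with the 2 probe sets most like and most unlike Apoa4. No table paired probe set IDs with gene names (0 matched), so pathway and cell type marker lists were not used and the liver label was not checked.

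The code was tested on simulated data. False calls were near the rate aimed at where the spread was equal between groups. They exceeded it where each group kept its own spread, mostly at dim probe sets and most in stained against entire sections. Shares called over all probe sets are therefore open to false calls. After seeing this, exact permutation tests of single members and shares among brighter probe sets were added. The other alternatives were the deposited scale, the order of floor and normalization, the floor, a dim filter, arrays in the fit, array weights, the variance prior, the replicate block, the GAPDH ratio, arrays in doubt and leaving out each replicate.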

Additional observations from a re-analysis of the deposited data

Results flagged for a closer look

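Dixon's test was applied to deposited intensities, not normalized here, in 48 groups of 5 to 8 arrays over the member probe sets. In 6 groups the highest or lowest array was set apart by more than its 95% critical value. Chance flags about 1 in 20 independent groups, and groups of different probe sets on the same arrays are not independent. In entire sections at 0.54% CA, replicate 6 stood above the other 5 arrays for Apoa4 (29 against a next value of 14), Apoa2 (5896 against 4002) and Apoe (13418 against 7679). Its GAPDH 3'/5' ratio was 2.21. After normalization its Apoa2 level was 12.35 on the log2 scale, the same as that of replicate 4. In entire sections at 0.29% CA, replicate 7 stood below the other 7 arrays for the Apoc3 probe set j02596cds_g_at (1916 against 2450), with a GAPDH ratio of 5.07. In stained sections at 0.29% CA, replicate 4 stood above the others for Apoa4 (66 against 30) and replicate 7 for Apoe (25665 against 16907). The part of RNA quality in these values was not tested.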

How the results depend on the processing

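In entire and stained sections, all 22 member calls made by limma over 9 contrasts also had an unadjusted exact permutation p under 0.05, as did 9 further member differences (31 of 72 in all). That test, chosen after seeing the data, gave 4 members between the doses in entire sections (1 by limma), 2 in stained sections (0 by limma), and 4 and 2 for stained against entire at 0.29% and 0.54% CA (2 and 1 by limma). It was run on the member probe sets alone, without adjustment. No share over all probe sets stands beside its counts, so they are not read as a result about the members. Between the doses in entire sections the limma count was 3 with a floor of 20 or the dim filter, 4 with array weights, 2 with the trended prior and 1 to 2 leaving out each array. In stained sections it was 1 under a floor of 20, the dim filter, all groups, weights or the trended prior. With the dim filter, 4.02% of all probe sets tested were called between the doses in entire sections and 0.323% in stained sections. For stained against entire sections, the deposited scale gave 5, 4 and 3 calls at 0, 0.29 and 0.54% (2, 2 and 1 normalized), the GAPDH covariate gave 0 at each, and at 0.54% the count was 0 without arrays in doubt and 0 to 1 leaving out each array. Over the doses, the stained count of 5 became 3 with weights, 1 with the GAPDH covariate and 3 without arrays in doubt. The dehydrated count of 1 became 3 on the deposited scale, 2 with fewer groups fitted and 0 with the covariate. The LCM-reference-time count of 0 became 4 and 2 in the first of these, and the microdissected count of 1 became 3, 2 and 0. Signs turned on the deposited scale for Apoc3 j02596cds_g_at (0.44, stained controls; 0.40, LCM-reference-time), Apoa2 (0.40, stained), Apoc1 (0.99, LCM-reference-time; 0.95, microdissected), Apoe (2.03, LCM-reference-time) and Apoc3 j02596cds_at (0.025, microdissected), each against entire sections. The share of higher probe sets among all those called was 55.6% normalized and 41.3% deposited for stained against entire controls, 55.3% and 36.7% for LCM-reference-time, and 57.2% and 36.8% for microdissected against entire sections; for CA in LCM-reference-time sections it was 46.2% and 56.6%. Same-numbered arrays did not all deviate together: of their correlations 6 of 8 were over 0.1 for entire control against 0.29% (median 0.19, lowest -0.029) and 6 of 7 for stained control against 0.29% (median 0.49, lowest -0.26), and fewer or as many in other group pairs. In these group pairs 5 of 8 and 3 of 7 control arrays correlated best with the 0.29% array of their own number. The highest same-numbered r were 0.66 and 0.80. As this was uneven, the numbers were not taken as pairing samples, and whether some arrays share an origin is not stated in the labels. The replicate block changed none of the 88 member calls it could be fitted for. With it, 5 and 4 members were called at 0.29% and 0.54% in entire sections. Other causes were not tested. Signal over background limits the size of the Apoa4 fall.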
